A study of Rattus norvegicus with 18 samples.

Results

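Of 38 genes that carry out phototransduction in rods or build the rod outer segment, 37 were measured in rat retina and are described here, out of 14506 genes that the arrays measured under a symbol of their own. The members were taken by gene symbol from the platform's probe annotation, with the brightest probe set standing for a gene that had several. Rd3 was not analysed here. Each value is a log2 intensity after RMA, which puts the arrays on a common scale, so a difference of 1 is a 2-fold change. Because probe sets differ in their affinity, levels are compared between retinas and not between genes. RNA came from the retina of adult Sprague Dawley rats aged P80 to P120, and 3 arrays, each from a different animal, made up each of 6 groups. All rats were raised in 5 lux cyclic light and ate a vegetable matrix, which was also the vehicle for saffron. The PBMLD rats received photobiomodulation, a red light treatment, for 3 min a day on 5 days and then bright light for 24 h. The SafLD rats were fed saffron at 1 mg/kg per day for 3 weeks and then had the same 24 h of light. The LD rats had the bright light with no pretreatment. The PBM and saffron rats had the pretreatments without bright light, and the control rats had neither. The sample descriptions give the bright light as 1000 lux in every exposed group, while the source names give 100 lux for LD alone and 1000 lux for PBMLD and SafLD. Exposed rats were also caged singly and dark adapted overnight before the light, and their retinas were taken as it ended. These steps and the light itself cannot be told apart. The paper's schedule puts the collection of PBM and PBMLD retinas at the same hour, and gives no clock hour for control and saffron retinas. In comparisons that use control or saffron retinas, the hour of collection cannot be told apart from the light either. Animals of both sexes were used in each group, and the labels give no sex for an array.

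In a rod, light changes rhodopsin, which activates the G protein transducin; transducin switches on a phosphodiesterase that breaks down cyclic GMP, and cyclic GMP-gated cation channels in the outer segment close. The response ends when the pigment is phosphorylated and capped by arrestin, when transducin hydrolyses its GTP, and when falling calcium releases guanylate cyclase from inhibition. The machinery sits on stacked membrane discs that are renewed every day, and rods are by far the most numerous cells of the rat retina. In whole retina, fewer rods and less RNA per rod cannot be told apart.

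The members were bright. Their mean levels lay between the 91.2nd and the 99.95th percentile of the 29214 probe sets, apart from Rpgr at the 69.8th and Gucy2e at the 34.5th. Gucy2e had a mean level of 4.99, below the array medians of 6.12 to 6.19, and its gene record carries names of the olfactory cyclase, whereas that of Gucy2d carries the name of the retinal enzyme. A few arrays stood apart. LD 3 was the lowest LD array in 29 of the 37 members, PBMLD 2 the lowest PBMLD array in 26, saffron 2 the lowest saffron array in 23 and SafLD 1 the lowest SafLD array in 22. The mean level of 14 lens genes was 10.7 in PBMLD 1, 11.5 in LD 1, 11.5 in LD 3 and 10.8 in saffron 1, against 9.04 to 10.1 in the other arrays. The mean of 8 pigment epithelium genes was 6.83 in LD 3 and 4.57 to 6.39 in the others. None of the 14 lens genes or the 8 pigment epithelium genes was called in the exposed against unexposed comparison below, where their median differences were 0.27 and 0.18. A list of 6 light-response genes was chosen with earlier results of these data known, so its rise is not an independent check of the exposure. All 6 were called higher in LD against control, by 0.95 to 5.26 on the log2 scale. In PBMLD against control 3 of the 6 were called higher. Every exposed array lay above every unexposed array in each of these genes, except that Ccl2 had 5.34 in PBMLD 1, against 4.98 to 5.90 in unexposed arrays.

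Part of the rod machinery was lower in light-exposed retinas. Over the 9 exposed arrays (PBMLD, SafLD and LD) against the 9 unexposed arrays (PBM, saffron and control), 13 members fell and 3 rose at an adjusted p below 0.05, from limma with Benjamini-Hochberg adjustment over all probe sets. That is 16 of 37 members, beside 4.82% of all probe sets in either direction, 2% lower and 2.83% higher. The median difference of the members was -0.22, beside -0.01 over all probe sets, and none of them was both called and changed by more than 2-fold, beside 0.421% of all probe sets. The genes that fell were Gnat1, Pdc, Gnb5 and Unc119 of the transducin group, Cngb1 and Slc24a1 of the channel group, Guca1b, Rcvrn, Rom1, Impg1, Tulp1, Cabp4 and Nrl. The genes that rose were Fscn2, Prom1 and Impg2, all of the disc and matrix group. In 7 members every exposed array lay below every unexposed array, and in Fscn2 every exposed array lay above, beside 0.397% and 0.633% of all probe sets. Without LD 3 and PBMLD 2 the count was 17, and all 16 genes were among them. Without the 4 arrays of highest lens level it was 11, and Slc24a1, Guca1b, Impg1, Impg2 and Tulp1 were lost. After quantile normalization it was 12, with Gnb5, Slc24a1, Guca1b, Tulp1 and Cabp4 lost and Sag gained. The shares of all probe sets called in these refits are not given here. The part of the lens and pigment epithelium RNA in these differences was not tested otherwise.

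**Figure D1:**
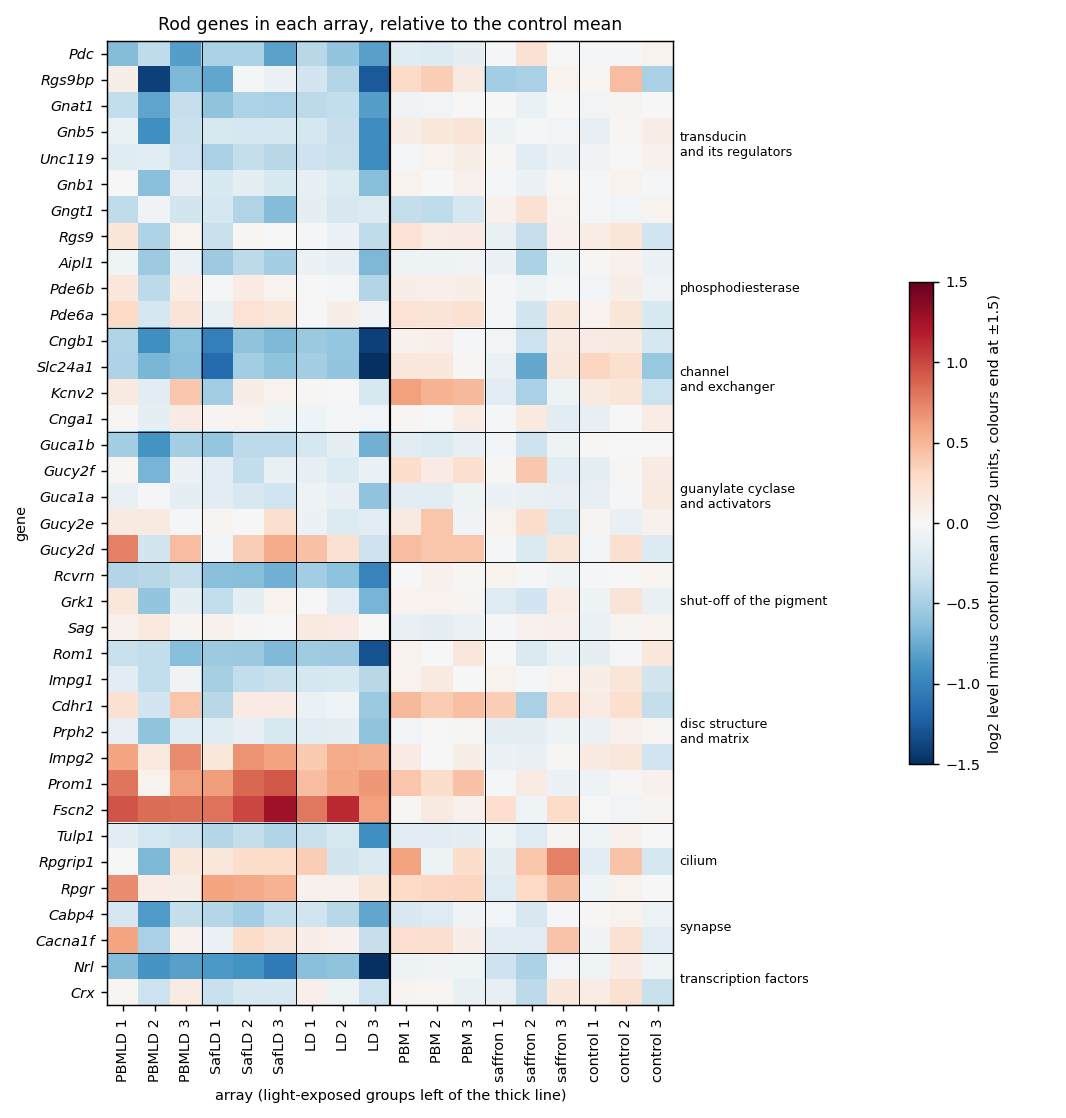
Rod genes in each array. Rows are the 37 genes grouped by role, columns are the 18 arrays with the exposed groups PBMLD, SafLD and LD on the left, and colour is the log2 level minus the control mean, with colours ending at ±1.5. Blue runs through Nrl, Cngb1, Slc24a1, Rom1, Rcvrn and Pdc in the 9 exposed arrays and is deepest in LD 3 for all of these but Pdc, while Fscn2 is red in all 9.

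Transducin carries the signal from the pigment to the phosphodiesterase. Gnat1, its rod alpha subunit, had a lowest, median and highest level of 12.96, 13.32 and 13.43 in exposed retinas, against 13.68, 13.77 and 13.81 in unexposed retinas. No exposed array reached the unexposed range, and the difference was -0.49 ± 0.08 (SE, 9 arrays each; adjusted p 0.000769 by limma), 1.41-fold lower. Its level was close to the highest value of an array, which was 13.6 to 14.03, and whether bright spots saturated was not tested. Pdc encodes phosducin, which binds the transducin beta and gamma subunits. It had 11.77, 12.01 and 12.22 in exposed retinas, against 12.40, 12.58 and 12.83 in unexposed retinas. Again the ranges did not meet, and the difference was -0.57 ± 0.08 (adjusted p 0.000264 by limma). Gnb5, which forms the GTPase-accelerating complex with Rgs9, fell by 0.44 and Unc119, a lipid-binding carrier of transducin alpha, by 0.37 (adjusted p 0.0211 and 0.0105 by limma). The rod beta and gamma subunits did not pass the test over all exposed arrays. Gnb1 differed by -0.26 (95% interval -0.44 to -0.08) and Gngt1 by -0.22 (-0.37 to -0.08), and the less bright Gnb1 probe set gave nearly the same LD difference as the brighter, -0.34 and -0.33. Rgs9bp, the membrane anchor of Rgs9, had the widest interval of the group, with a difference of -0.52 (-0.93 to -0.11). Its exposed arrays ran between 8.58 and 10.06 around a median of 9.53, against 9.46 to 10.44 around 10.04 in unexposed retinas. Rgs9 itself differed by -0.12 (-0.34 to 0.10).

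The cyclic GMP-gated channel and the exchanger that clears calcium split along subunits. Cngb1, the beta subunit of the rod channel, had 8.82, 9.61 and 9.77 as lowest, median and highest level in exposed retinas, against 9.90, 10.28 and 10.36 in unexposed retinas. The ranges did not meet, and the difference was -0.74 ± 0.12 (adjusted p 0.000845 by limma), 1.67-fold lower. Cnga1, the alpha subunit of the same channel, had 12.60, 12.73 and 12.87 in exposed retinas, against 12.59, 12.76 and 12.90 in unexposed retinas. The ranges nearly coincided, and the difference was -0.02 with a 95% interval of -0.16 to 0.12. Within an array, Cngb1 minus Cnga1 had a median of -3.19 in exposed and -2.50 in unexposed retinas, and its mean was lower by 0.72 in exposed retinas, with the ranges just overlapping. Slc24a1, the rod sodium, calcium and potassium exchanger, had 9.90, 11.13 and 11.27 in exposed retinas, against 10.96, 11.90 and 12.06 in unexposed retinas. All exposed arrays lay below 7 of the 9 unexposed arrays, saffron 2 and control 3 fell within the exposed range, and the difference was -0.73 ± 0.18 (adjusted p 0.0248 by limma). Leaving out control 1, control 2, PBM 2, saffron 1 or SafLD 1 took Slc24a1 out of the calls. Kcnv2, a modulatory potassium channel subunit of photoreceptors, differed by -0.12 (-0.35 to 0.10).

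Crx and Nrl, themselves members, act on many rod promoters, and the promoters of the channel partners are shown because these genes differed in response. Promoter windows of 300 bases, 250 before and 50 after the RefSeq start in the GRCr8 assembly, were matched by gene ID for 34 of the 37 members. They were searched on both strands for TAATCC, the core letters bound by Crx and Otx factors, and for TGCTGA, the core of sites of the Maf family to which Nrl belongs. Matches of the 2 motifs cannot overlap each other. Capitals mark these letters on either strand and everything else is in lower case. Gnat1, Grk1 and Rcvrn had no matched window. Of the 11 lowered genes with a window, Cngb1 and Cabp4 held TAATCC, and Cngb1 and Guca1b held TGCTGA. Pdc, Gnb5, Unc119, Slc24a1, Rom1, Impg1, Tulp1 and Nrl held neither motif. Only Cngb1 and Cabp4 of the 11 are printed. Cnga1, which was not called, and Fscn2, which rose, also held neither motif. The windows lie at chr19:9732396-9732695 (plus strand) for Cngb1, chr14:35920698-35920997 (plus) for Cnga1, chr1:210862583-210862882 (minus) for Cabp4 and chr10:106132894-106133193 (plus) for Fscn2, and each reads 5′ to 3′ along its gene.
Cngb1: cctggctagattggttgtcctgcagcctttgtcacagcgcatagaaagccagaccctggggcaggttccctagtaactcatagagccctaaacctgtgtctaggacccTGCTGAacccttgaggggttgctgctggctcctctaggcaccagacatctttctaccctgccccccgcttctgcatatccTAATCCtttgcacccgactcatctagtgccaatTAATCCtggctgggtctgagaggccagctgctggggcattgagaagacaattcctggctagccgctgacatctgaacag
Cnga1: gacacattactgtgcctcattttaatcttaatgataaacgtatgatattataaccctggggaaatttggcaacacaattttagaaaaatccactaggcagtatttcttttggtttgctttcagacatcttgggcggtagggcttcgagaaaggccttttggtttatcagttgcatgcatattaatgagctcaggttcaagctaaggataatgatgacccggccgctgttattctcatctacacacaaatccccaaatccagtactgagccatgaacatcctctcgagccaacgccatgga
Cabp4: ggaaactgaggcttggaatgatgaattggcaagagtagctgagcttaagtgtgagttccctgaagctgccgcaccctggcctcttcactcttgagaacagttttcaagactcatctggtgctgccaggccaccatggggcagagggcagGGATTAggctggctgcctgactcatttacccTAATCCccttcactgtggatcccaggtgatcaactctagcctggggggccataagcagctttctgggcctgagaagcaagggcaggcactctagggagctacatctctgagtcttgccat
Fscn2: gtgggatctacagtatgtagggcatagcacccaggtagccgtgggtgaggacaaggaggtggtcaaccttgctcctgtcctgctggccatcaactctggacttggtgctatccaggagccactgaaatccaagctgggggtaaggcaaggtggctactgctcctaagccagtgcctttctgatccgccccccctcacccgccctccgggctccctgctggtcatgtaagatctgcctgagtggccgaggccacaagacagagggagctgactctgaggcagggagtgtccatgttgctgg
In Cngb1 the TAATCC matches began 62 and 29 bases before the start and the TGCTGA match 142 bases before it. In Cabp4 they began 101 bases before the start on the opposite strand and 70 bases before it on the gene's strand. TAATCC was present in 26.5% of the member windows and in 7.17% of all 33469 windows of this length, and TGCTGA in 20.6% and 18.4%. By response, TAATCC was in 2 of 11 members that fell, 0 of 3 that rose and 7 of 20 that were not called. For TGCTGA these counts were 2 of 11, 0 of 3 and 5 of 20. A link between motif and response was not tested. A match is a run of letters and not a shown binding site.

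The phosphodiesterase that breaks down cyclic GMP moved little. Pde6a and Pde6b, its catalytic subunits, differed by 0.01 (95% interval -0.18 to 0.20) and -0.06 (-0.24 to 0.11) between exposed and unexposed retinas. Aipl1, the chaperone that folds the enzyme, differed by -0.24 (-0.44 to -0.05) and was not called. Among the genes of cyclic GMP synthesis, Guca1b, which encodes a calcium-sensing activator of guanylate cyclase, had 11.35, 11.74 and 12.11 in exposed retinas, against 11.94, 12.17 and 12.27 in unexposed retinas. The ranges overlapped, and the difference was -0.39 ± 0.08 (adjusted p 0.0104 by limma). Guca1a, the other activator, differed by -0.12 (-0.27 to 0.04). The cyclases themselves were not called, with differences of 0.11 for Gucy2d (-0.18 to 0.39), -0.30 for Gucy2f (-0.51 to -0.09) and -0.06 for the dim Gucy2e (-0.22 to 0.11).

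Of the genes that shut the pigment off, Rcvrn was called. It encodes recoverin, the calcium sensor that restrains rhodopsin kinase. The lowest, median and highest levels of Rcvrn were 11.90, 12.28 and 12.55 in exposed retinas, against 12.85, 12.91 and 12.97 in unexposed retinas. The unexposed arrays lay within a narrow band and every exposed array was below it, with a difference of -0.60 ± 0.07 (adjusted p 2.22e-05 by limma), 1.51-fold lower. Grk1, rhodopsin kinase itself, differed by -0.18 (95% interval -0.42 to 0.05). Sag, rod arrestin, differed by 0.09 (-0.02 to 0.21) and was called in this comparison only after quantile normalization among the settings run.

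Genes of the discs and of the matrix around the outer segment went both ways. Rom1, a tetraspanin of the disc rim, had 10.70, 11.45 and 11.66 in exposed retinas, against 11.78, 12.00 and 12.17 in unexposed retinas. The ranges did not meet, and the difference was -0.60 ± 0.10 (adjusted p 0.00103 by limma). Prph2, peripherin, its partner at the rim, differed by -0.22 (95% interval -0.39 to -0.05) and was not called. Fscn2, an actin-bundling fascin of photoreceptors, had 10.52, 10.74 and 11.17 in exposed retinas, against 9.84, 9.94 and 10.17 in unexposed retinas. Every exposed array was above every unexposed array, and the difference was 0.84 ± 0.08 (adjusted p 5.35e-06 by limma), 1.79-fold higher. Prom1, prominin of the forming discs, had 11.03, 11.61 and 11.91 in exposed retinas, against 10.89, 11.04 and 11.41 in unexposed retinas, and its difference was 0.50 ± 0.09 (adjusted p 0.00246 by limma). The overlap came from PBMLD 2 alone, the lowest exposed array, and the PBM arrays were the highest unexposed ones. The interphotoreceptor matrix proteoglycans moved in opposite directions. Impg2 had 12.03, 12.44 and 12.59 in exposed retinas, against 11.58, 11.90 and 12.06 in unexposed retinas, and rose by 0.48 ± 0.10, while Impg1 had 9.66, 9.81 and 10.10 in exposed retinas, against 9.88, 10.20 and 10.33 in unexposed retinas, and fell by 0.33 ± 0.07 (adjusted p 0.00499 and 0.0118 by limma). Exposed and unexposed ranges overlapped in both. Cdhr1, a cadherin at the base of the outer segment, differed by -0.22 (-0.51 to 0.07).

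**Figure D2:**
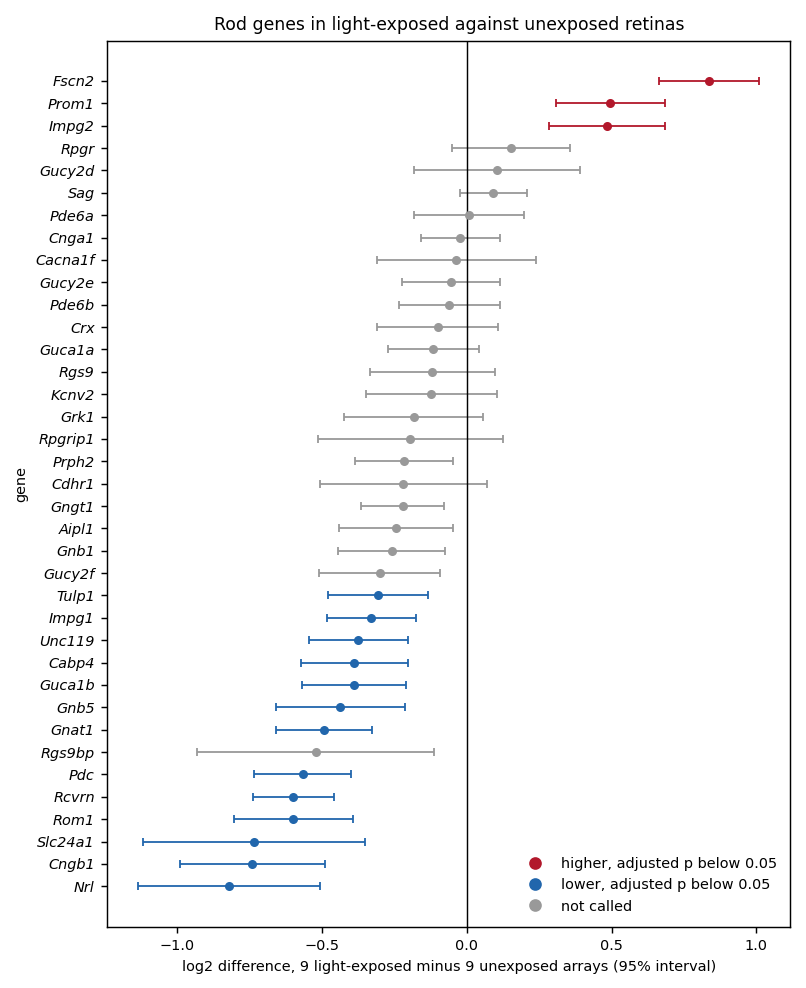
Differences of the 37 rod genes between light-exposed and unexposed retinas. Points are log2 differences of 9 exposed minus 9 unexposed arrays from limma, with bars for the 95% interval, blue for lower and red for higher at an adjusted p below 0.05. Nrl is the lowest at -0.82 and Fscn2 the highest at 0.84, while Pde6a and Cnga1 lie at 0.01 and -0.02.

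Nrl had the lowest difference of the members. It encodes the transcription factor that sets rod identity. Its lowest, median and highest levels were 9.82, 10.98 and 11.24 in exposed retinas, against 11.37, 11.78 and 11.97 in unexposed retinas. The ranges did not meet even though LD 3 lay more than 1 log2 unit below the other LD arrays, and the difference was -0.82 ± 0.15 (adjusted p 0.0025 by limma), 1.77-fold lower. Crx, the homeobox factor shared by rods and cones, differed by -0.10 (95% interval -0.31 to 0.11). Of the synaptic genes, Cabp4, a calcium-binding regulator of the photoreceptor calcium channel, had 10.71, 11.15 and 11.31 in exposed retinas, against 11.32, 11.51 and 11.61 in unexposed retinas, and fell by 0.39 ± 0.09 (adjusted p 0.0133 by limma). The ranges came close without meeting. Cacna1f, the pore of that channel, differed by -0.04 (-0.31 to 0.24). Of the cilium genes, Tulp1, a protein needed for transport into the outer segment, had 10.87, 11.45 and 11.63 in exposed retinas, against 11.59, 11.72 and 11.86 in unexposed retinas, and fell by 0.31 ± 0.08 (adjusted p 0.0383 by limma). Its ranges overlapped slightly, and its call was the least stable of the 16, being lost when any control or PBM array or several others were left out. Rpgr and Rpgrip1, which work together in the connecting cilium, differed by 0.15 (-0.05 to 0.36) and -0.20 (-0.52 to 0.12).

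Genes with related roles, compared in chosen pairs, differed in how much they changed within the same array. The mean of Rom1 minus Prph2 was lower by 0.38 in exposed than in unexposed retinas, that of Gnat1 minus Gnb1 by 0.23, that of Guca1b minus Guca1a by 0.27 and that of Nrl minus Crx by 0.72. Fscn2 minus Prph2, both from the disc and matrix group and not taken as partners, was higher by 1.06. For Gnat1 minus Gnb1 the exposed arrays ran between -0.23 and -0.01 and the unexposed arrays between 0.05 and 0.19, so the ranges did not meet. For Nrl minus Crx the median was -0.48 in exposed and 0.10 in unexposed arrays, and again the ranges did not meet, nor did they for Fscn2 minus Prph2. They overlapped for Rom1 minus Prph2, with -1.86 to -0.93 in exposed and -1.24 to -1.01 in unexposed arrays, and for Guca1b minus Guca1a, with -1.03 to -0.16 in exposed and -0.34 to -0.00 in unexposed arrays. Each pair, including Cngb1 and Cnga1 above, set a member called in these same data against one that was not. A shift was therefore built into the choice and adds no support. Gnat1, Nrl and Fscn2 were already apart between exposed and unexposed arrays on their own. How often other pairs of probe sets are apart is not given here. The pair values are unequal changes of probe sets and carry no test.

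**Figure D3:**
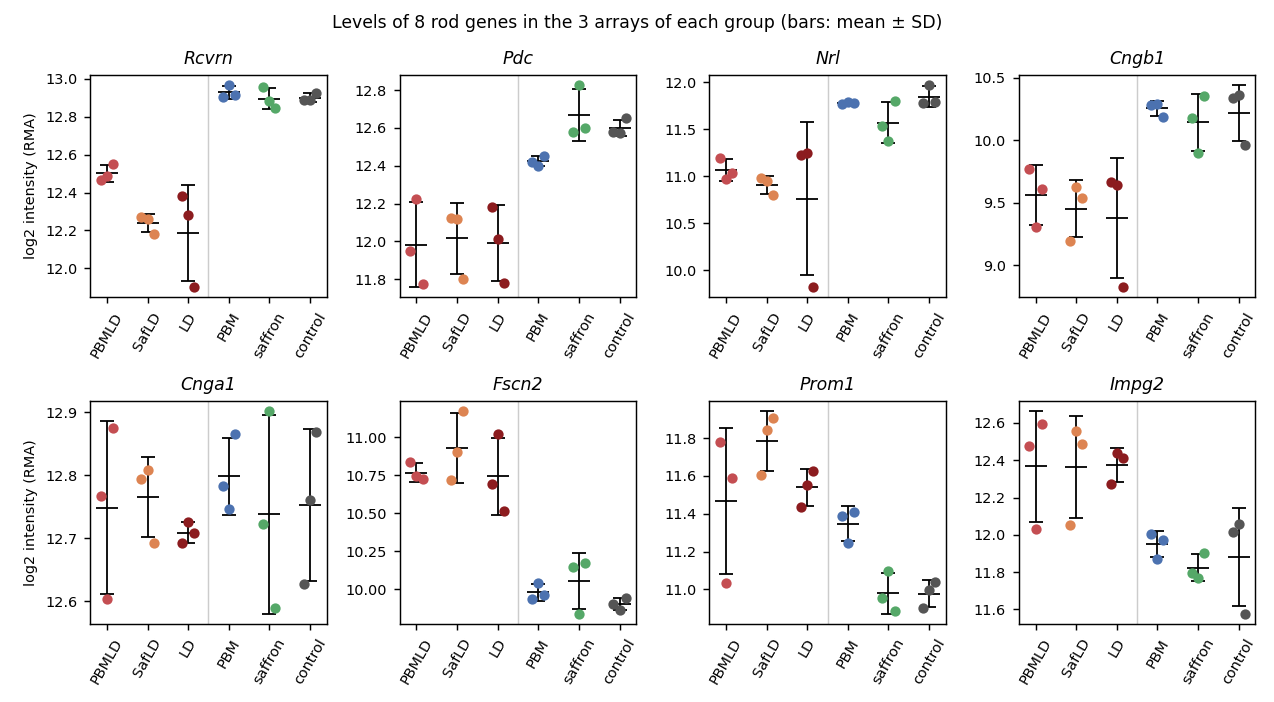
Levels of 8 rod genes in each array. Each dot is an array at its log2 intensity, with groups from PBMLD to control along the axis, a thin line between exposed and unexposed groups, and bars for the mean ± SD of 3 arrays. Rcvrn, Pdc, Nrl and Cngb1 are lower in the exposed groups, Cnga1 overlaps between exposed and unexposed arrays, and Fscn2 is higher in each exposed group than in any unexposed one.

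The light response without pretreatment is the comparison of LD with control retinas. Here 3 members fell and 1 rose, beside 0.274% of all probe sets lower, 0.839% higher and 1.11% in either direction, and 14 members had every LD array below every control array and 4 had every LD array above. These counts of separate groups stood beside 8.88% and 7.54% of all probe sets. Rcvrn had 12.38, 12.28 and 11.90 in LD retinas 1 to 3, against 12.89, 12.89 and 12.93 in control retinas. The groups were well apart, and Rcvrn fell by 0.71 ± 0.12 (adjusted p 0.00337 by limma). Fscn2 had 10.69, 11.02 and 10.52 in LD retinas, against 9.90, 9.86 and 9.94 in control retinas, and rose by 0.84 ± 0.14 (adjusted p 0.00476 by limma). All 3 LD arrays were higher. Pdc had 12.18, 12.01 and 11.78 in LD retinas, against 12.58, 12.57 and 12.65 in control retinas, and fell by 0.61 ± 0.14 (adjusted p 0.0413 by limma). Rom1 had 11.47, 11.46 and 10.70 in LD retinas, against 11.86, 11.99 and 12.16 in control retinas, and fell by 0.79 ± 0.17 (adjusted p 0.0282 by limma). Both groups were apart in each gene, but LD 3 was the lowest array, and without it Pdc differed by -0.50 (adjusted p 0.245 by limma) and Rom1 by -0.54 (0.102). Rcvrn and Fscn2 kept their calls whichever LD or control array was left out, and the count was 2 without LD 3 or any control array and 7 without LD 1. Fitting the LD and control arrays alone ended both calls (adjusted p 0.114 for Rcvrn and 0.0631 for Fscn2 by limma). All 14 lens genes had a positive difference in LD against control, with a median of 1.098 and 11 at an unadjusted p below 0.05 in limma, as did 7 of the 8 pigment epithelium genes, with a median over all 8 of 0.52 and 3 below that limit, and none of either list was called. Without the arrays of highest lens level, which left LD 2 alone in its group and assumed to vary like the arrays of the other groups, Rcvrn differed by -0.62 (adjusted p 0.0728 by limma) and 1 member was called.

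The members with the largest LD differences were not called. Nrl had 11.22, 11.24 and 9.82 in LD retinas, against 11.78, 11.97 and 11.78 in control retinas, a difference of -1.09 ± 0.26 (adjusted p 0.0502 by limma). Slc24a1 had 11.23, 11.15 and 9.90 in LD retinas, against 12.06, 11.97 and 11.17 in control retinas (-0.98 ± 0.31, adjusted p 0.212 by limma). Cngb1 had 9.67, 9.64 and 8.82 in LD retinas, against 10.34, 10.36 and 9.96 in control retinas (-0.84 ± 0.21, adjusted p 0.0612 by limma). LD 3 was at least 0.8 below the other LD arrays in all 3 genes, and control 3 was the lowest control array in Slc24a1 and Cngb1. Without LD 3 the differences were -0.62 for Nrl, -0.55 for Slc24a1 and -0.57 for Cngb1. Gnat1 had 13.38, 13.41 and 12.96 in LD retinas, against 13.74, 13.81 and 13.78 in control retinas, with the groups apart.

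The same light response can be read in 3 comparisons that share no array. In PBMLD against PBM, 1 member was called, higher in PBMLD, beside 0.123% of all probe sets lower, 0.205% higher and 0.329% in either direction. Fscn2 had 10.84, 10.74 and 10.72 in PBMLD retinas, against 9.93, 10.04 and 9.96 in PBM retinas, and rose by 0.79 ± 0.14 (adjusted p 0.0181 by limma). Its call was lost without PBMLD 3 or any PBM array. The largest difference belonged to Rgs9bp, with 10.06, 8.58 and 9.31 in PBMLD retinas, against 10.27, 10.35 and 10.12 in PBM retinas (-0.93 ± 0.34, adjusted p 0.421 by limma). PBMLD 2 was far below the other PBMLD arrays there, and the groups only just did not overlap. Nrl had 11.19, 10.97 and 11.03 in PBMLD retinas, against 11.77, 11.79 and 11.78 in PBM retinas, Cngb1 9.77, 9.31 and 9.61 against 10.28, 10.29 and 10.19, and Rcvrn 12.47, 12.49 and 12.55 against 12.91, 12.97 and 12.91. In these genes, too, every PBMLD array was below every PBM array, with differences of -0.72, -0.69 and -0.43 that were not called.

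In SafLD against saffron, 3 members fell and 2 rose, beside 0.958% of all probe sets lower, 1.14% higher and 2.09% in either direction. Rcvrn had 12.27, 12.26 and 12.18 in SafLD retinas, against 12.95, 12.88 and 12.85 in saffron retinas, and fell by 0.66 ± 0.12 (adjusted p 0.00454 by limma). Pdc had 12.12, 12.12 and 11.80 in SafLD retinas, against 12.58, 12.83 and 12.60 in saffron retinas, and fell by 0.65 ± 0.14 (adjusted p 0.0175 by limma). In both genes the SafLD arrays were below the saffron arrays, and SafLD 3 was the lowest. Gngt1, the rod transducin gamma subunit, had 12.75, 12.56 and 12.36 in SafLD retinas, against 13.07, 13.24 and 13.07 in saffron retinas, and fell by 0.57 ± 0.12 (adjusted p 0.0155 by limma). Fscn2 had 10.72, 10.90 and 11.17 in SafLD retinas, against 10.15, 9.84 and 10.17 in saffron retinas, and rose by 0.88 ± 0.14 (adjusted p 0.00201 by limma). Prom1 had 11.61, 11.84 and 11.91 in SafLD retinas, against 10.95, 11.09 and 10.89 in saffron retinas, and rose by 0.81 ± 0.15 (adjusted p 0.00877 by limma). In all 5 genes the groups did not overlap, which adds little because the genes were taken for their calls in this comparison. The share of all probe sets that did not overlap here is not given. Without SafLD 3 the count was 2, and without SafLD 2 or saffron 2 it was 3.

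**Figure D4:**
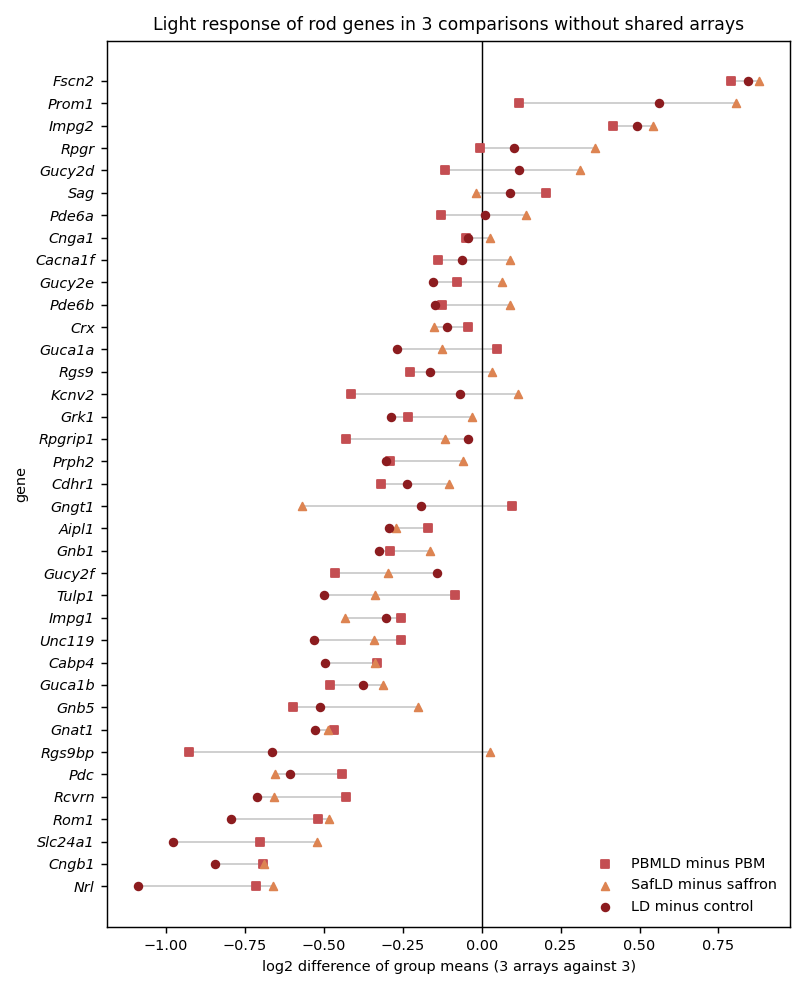
Light response of each rod gene in 3 comparisons with no shared array. The horizontal axis is the log2 difference of group means, 3 arrays against 3, for PBMLD minus PBM (squares), SafLD minus saffron (triangles) and LD minus control (circles), with a grey line joining the lowest and highest. Nrl lies between -1.09 and -0.66 and Fscn2 between 0.79 and 0.88, while Pde6a and Cnga1 straddle 0.

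Across the 3 comparisons 21 members were lower in each, 3 were higher in each and the rest changed sign. Of the 14506 genes, 2608 were lower in each and 2712 higher in each. The same sign was kept by 64.9% of the members and by 36.7% of the 14506 genes. Across the 37 genes, which are not independent replicates, the LD response correlated with the PBMLD response at r = 0.84 and with the SafLD response at r = 0.89, and the responses of the pretreated groups with each other at r = 0.67. Over all genes the values were 0.55, 0.59 and 0.33. All genes include dim ones while nearly all members were bright, and genes of matched level were not compared. The higher values of the members therefore need not be particular to rod genes. Cngb1 was -0.69 in both pretreated groups and -0.84 in LD, and Gnat1 lay between -0.53 and -0.47 in all 3. Gngt1 changed sign, with 0.10 in PBMLD against PBM, -0.57 in SafLD against saffron and -0.19 in LD against control.

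Pretreatment without bright light gave no call among the members, which with 3 arrays a group does not show that they were unchanged. In PBM against control limma called no member, beside 0.154% of all probe sets, and 3 members had an unadjusted p below 0.05, beside 9.96% of all probe sets. The methods' t-test with Benjamini-Hochberg adjustment called 0 members. The median difference was 0.06. Kcnv2 had 10.71, 10.62 and 10.58 in PBM retinas, against 10.23, 10.28 and 9.78 in control retinas, and Cdhr1 had 11.88, 11.77 and 11.85 in PBM retinas, against 11.52, 11.63 and 11.04 in control retinas. In both genes every PBM array was above every control array, with differences of 0.54 (95% interval 0.15 to 0.93) and 0.44 (-0.06 to 0.94), and control 3 was the lowest control array. Prom1 had 11.39, 11.24 and 11.41 in PBM retinas, against 10.90, 10.99 and 11.04 in control retinas (0.37, interval 0.05 to 0.70). Gngt1 had 12.66, 12.63 and 12.75 in PBM retinas, against 13.00, 12.97 and 13.07 in control retinas (-0.33, interval -0.58 to -0.08). The groups were apart in both. They were apart, lower in PBM, in 5 members and higher in 7, beside 11.4% and 11.8% of all probe sets.

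In saffron against control limma called no member, beside 0% of all probe sets, and none had an unadjusted p below 0.05, beside 4.6% of all probe sets. The methods' t-test with Benjamini-Hochberg adjustment called 0 members here too. The median difference was -0.05. The largest differences were those of Rpgrip1, with 9.77, 10.32 and 10.66 in saffron retinas, against 9.75, 10.33 and 9.64 in control retinas, and of Rgs9bp, with 9.46, 9.49 and 10.04 in saffron retinas, against 10.00, 10.44 and 9.49 in control retinas. The arrays of the groups were interleaved in both genes, with differences of 0.34 (95% interval -0.21 to 0.90) and -0.32 (-1.02 to 0.39).

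Whether the pretreatments changed the level of these genes under light is read from PBMLD and SafLD against LD, which share the LD arrays. No member was called in either comparison, beside 0.284% and 0.308% of all probe sets, and the methods' t-test with Benjamini-Hochberg adjustment called 0 in each. Limma gave 2 of the 37 members an unadjusted p below 0.05 in each, beside 11.5% of all probe sets in PBMLD against LD and 9.55% in SafLD against LD, so the members' share was not above that of all probe sets. The lens genes had median differences of -0.65 and -0.87 in these comparisons, and their part in the members' values was not tested. In PBMLD against LD the 2 members were Rcvrn and Unc119. Rcvrn had 12.47, 12.49 and 12.55 in PBMLD retinas, against 12.38, 12.28 and 11.90 in LD retinas. Every PBMLD array was higher, by 0.31 on average (95% interval 0.07 to 0.56, adjusted p 0.32 by limma), and all were still below every unexposed array. Unc119 also differed by 0.31 (0.02 to 0.61). The largest differences belonged to Slc24a1, with 11.27, 11.05 and 11.11 in PBMLD retinas, against 11.23, 11.15 and 9.90 in LD retinas, and to Cdhr1, with 11.62, 11.11 and 11.81 in PBMLD retinas, against 11.30, 11.33 and 10.84 in LD retinas. The groups overlapped in both, LD 3 was the lowest array in each, and the differences were 0.39 (-0.28 to 1.05) and 0.36 (-0.14 to 0.85).

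In SafLD against LD the members with an unadjusted p below 0.05 were Rpgr and Gngt1. Rpgr had 8.06, 8.04 and 7.99 in SafLD retinas, against 7.54, 7.54 and 7.65 in LD retinas, and every SafLD array was higher, by 0.46 (95% interval 0.10 to 0.81, adjusted p 0.362 by limma). Gngt1 had 12.75, 12.56 and 12.36 in SafLD retinas, against 12.88, 12.78 and 12.81 in LD retinas, a difference of -0.27 (-0.51 to -0.02) with the groups apart. Rgs9bp had 9.20, 9.97 and 9.89 in SafLD retinas, against 9.69, 9.53 and 8.72 in LD retinas, with the groups overlapping and a difference of 0.37 (-0.33 to 1.08). The intervals were wide for genes with the largest light differences. Nrl differed by 0.30 (-0.24 to 0.85) in PBMLD against LD and by 0.15 (-0.39 to 0.69) in SafLD against LD. Fscn2 differed by 0.03 (-0.27 to 0.32) and 0.19 (-0.11 to 0.49), and Gnat1 by 0.03 (-0.26 to 0.31) and 0.01 (-0.27 to 0.30). The median difference of the members was 0.08 in PBMLD against LD and 0.09 in SafLD against LD, beside 0.04 and 0.03 over all probe sets. Without LD 3 the medians were -0.04 and -0.05.

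**Figure D5:**
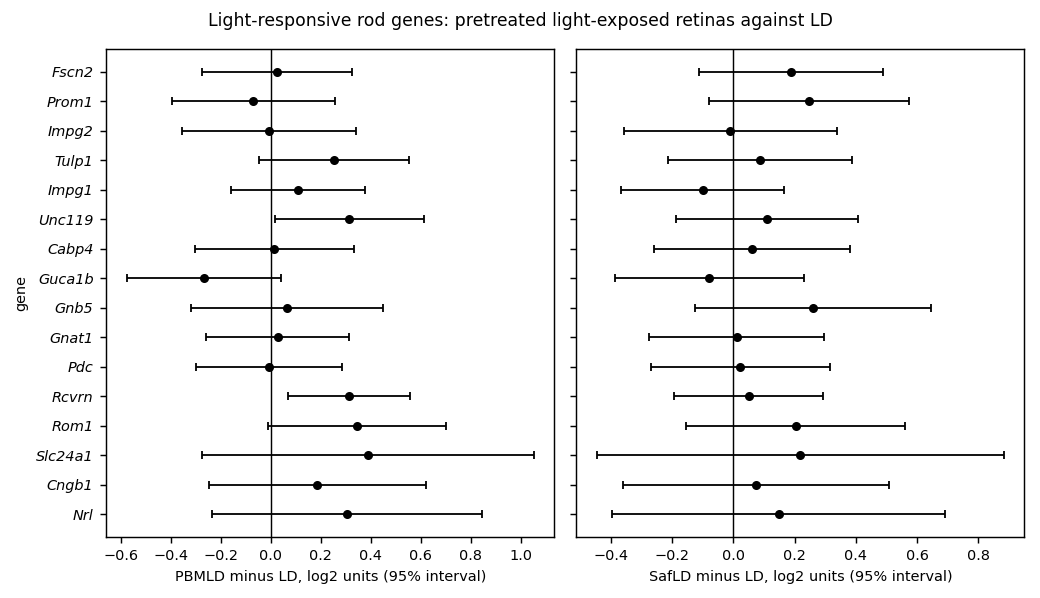
Pretreated light-exposed retinas against LD for the 16 genes called in exposed against unexposed retinas. Points are log2 differences from limma of 3 arrays against 3 for PBMLD minus LD and SafLD minus LD, and bars are 95% intervals. All intervals span 0 except those of Rcvrn and Unc119 in PBMLD minus LD, and no gene was called.

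The interaction terms ask whether the light response differed after PBM or after saffron. In neither term was a member called, beside 0.00685% and 0.14% of all probe sets. Limma gave an unadjusted p below 0.05 for 0 members in the PBM by light term, beside 4.26% of all probe sets, and for 1 in the saffron by light term, beside 5.84%. That member was Gngt1 (-0.38, 95% interval -0.73 to -0.03), and the other settings run called none. Of the 14 lens genes, 13 had an unadjusted p below 0.05 in the saffron by light term, with a median of -1.87. The largest values in the PBM by light term were those of Prom1, -0.44 (-0.90 to 0.02), and Tulp1, 0.41 (-0.01 to 0.84). Prom1 had 11.78, 11.03 and 11.59 in PBMLD retinas beside the PBM values above, and PBMLD 2 lay below all PBM arrays while the other PBMLD arrays lay above. Tulp1 had 11.63, 11.53 and 11.48 in PBMLD retinas, against 11.63, 11.62 and 11.64 in PBM retinas, and 11.45, 11.55 and 10.87 in LD retinas, against 11.72, 11.86 and 11.80 in control retinas. In the saffron by light term Rgs9bp had 0.69 (-0.31 to 1.69) and Slc24a1 0.46 (-0.48 to 1.39). Slc24a1 had 10.58, 11.21 and 11.13 in SafLD retinas, against 11.63, 10.96 and 11.90 in saffron retinas, with the groups overlapping through saffron 2.

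Set against untreated controls, which are the same 3 arrays used for LD, the pretreated and light-exposed retinas showed these calls. In PBMLD against control 2 members fell and 1 rose, beside 0.428% of all probe sets lower, 0.325% higher and 0.753% in either direction. Guca1b had 11.73, 11.35 and 11.74 in PBMLD retinas, against 12.27, 12.25 and 12.24 in control retinas, and fell by 0.65 ± 0.15 (adjusted p 0.04997 by limma, at the limit). The control arrays were tight and all PBMLD arrays lower. Pdc had 11.95, 12.22 and 11.77 in PBMLD retinas and fell by 0.62 ± 0.14 (adjusted p 0.0477 by limma), and Fscn2 rose by 0.87 ± 0.14. The count was 1 without PBMLD 1, PBMLD 3 or any control array. In SafLD against control 4 members fell and 2 rose, beside 1.34% of all probe sets lower, 1.45% higher and 2.8% in either direction. Rcvrn fell by 0.66, Pdc by 0.58, Gnat1 by 0.52 and Gngt1 by 0.46, and Fscn2 rose by 1.03 and Prom1 by 0.81, each with adjusted p by limma of 0.0497 or less. Gnat1 had 13.17, 13.32 and 13.29 in SafLD retinas, apart from the control arrays above. Fscn2, 2.04-fold higher, was the only member called with more than a 2-fold change, beside 0.921% of all probe sets. Without SafLD 3 the count against control was 2, and without SafLD 2, control 1 or control 2 it was 3.

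Other photoreceptor genes are given for comparison, from lists chosen by cell type. Their counts in exposed against unexposed retinas stand beside 2% of all probe sets lower, 2.83% higher and 4.82% in either direction. Of 13 cone genes, 4 fell and 2 rose in exposed against unexposed retinas, with a median of -0.26. In LD against control 2 of the 13 cone genes were called, both lower, beside 0.274% of all probe sets lower. Gnat2, cone transducin alpha, fell by 0.66 there and Pde6h, the cone phosphodiesterase gamma subunit, by 0.75 (adjusted p 0.0332 and 0.0115 by limma). The cone list did not move as one, as 9 of its differences in LD against control were negative and 4 positive, the highest 0.44. Of 13 further photoreceptor genes, 5 fell and 2 rose in exposed against unexposed retinas. Esrrb, a nuclear receptor found in rods, had 8.66, 8.33 and 7.27 in LD retinas, against 10.62, 10.43 and 10.24 in control retinas, and fell by 2.34 ± 0.33, and Reep6, a rod membrane-shaping protein, fell by 1.65 ± 0.24 (adjusted p 0.00114 and 0.0013 by limma). Both fell by more than any of the 37 members. Mak, a kinase of the photoreceptor cilium, rose by 0.75 ± 0.12 (adjusted p 0.00307 by limma). Of 8 bipolar cell genes 1 was lower in exposed retinas, of 12 amacrine and ganglion cell genes 1 was higher, of 10 Müller glia genes 1 was lower and 1 higher, and of 10 microglia genes 1 was lower. These are 8.33% to 20% of a list, beside 43.2% of the members, 46.2% of the cone genes and 53.8% of the further photoreceptor genes. With 8 to 12 genes a list, a single call already exceeds the shares of all probe sets, so these lists are not ranked. The shares changed with the comparison. In SafLD against control 37.5% of the bipolar genes and 25% of the amacrine and ganglion genes were called, beside 16.2% of the members and 2.8% of all probe sets. A difference by cell type was not tested.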

How the data were processed

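Retinal RNA of 18 rats was measured on 18 rat Gene ST arrays. The deposited values are log2 intensities summarised per probe set by RMA, for which the authors' processing notes name the program Affymetrix Expression Console, version 1.1.2800.19935. RMA corrects background and forces the arrays onto a shared distribution, so a shift of all genes would not show. The expression values were handled without a genome build, and promoter windows are those of a RefSeq table for GRCr8. Arrays give no read depth, and 3 arrays a group limit the precision. The methods describe more animals per group than the 3 arrays. Among 29214 probe sets, the platform annotation gave 1 symbol to 15310, several to 323 and none to 13581. Scan dates are not in it, so batches were not tested, and no array was left out. One linear model of the 6 group means was fitted with limma 3.58.1 in R 4.3.3 (12 residual degrees of freedom, prior 5.05), two-sided. A probe set was called at an adjusted p below 0.05, Benjamini-Hochberg over all probe sets. The authors' methods selected genes by t-test and a 2-fold change, which was run as an alternative, as were other normalizations, array weights, 2-group fits, probe filters and leaving out arrays. Every measured member may be named; values in every array are given for the 6 members with the largest LD differences, the 4 with the smallest p in exposed against unexposed retinas, the 2 largest in each other comparison and those called with a pretreatment. Members and lists were chosen with earlier results of these data known.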

Additional observations from a re-analysis of the deposited data

How the results depend on the processing

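Counts of members called by limma moved with the setting. The share of all probe sets called under each setting is not given here, so a changed count need not be particular to the members. Leaving out an array in turn gave 2 to 7 for LD against control, 1 to 3 for PBMLD against control, 2 to 5 for SafLD against control, 0 to 1 for PBMLD against PBM, 2 to 6 for SafLD against saffron and 14 to 17 for exposed against unexposed retinas. Fitting only the groups compared gave 0 for LD against control, 1 for PBMLD against control, 0 for PBMLD against PBM and 3 for SafLD against saffron. Array weights gave 8 for LD, 6 for PBMLD and 18 for SafLD against control, 3 for PBMLD against PBM and 12 for SafLD against saffron. A 2-fold limit as well gave 0 for LD, 0 for PBMLD and 1 for SafLD against control, and 0 for PBMLD against PBM, SafLD against saffron and exposed against unexposed. Quantile normalization gave 1 for PBMLD against control and 12 for exposed against unexposed, and cyclic loess gave 1 for PBMLD and 3 for SafLD against control. Without the LD and PBMLD arrays of lowest weight, chosen after seeing the data, counts were 6 for PBMLD against control and 2 for PBMLD against PBM. Without the 4 arrays of highest lens level, also chosen then, they were 1 for LD against control and 3 for PBMLD against PBM. The methods' t-test with its 2-fold limit gave 0 for LD, 0 for PBMLD and 1 for SafLD against control, 0 for PBMLD against PBM and 0 for SafLD against saffron, and 0 in each after Benjamini-Hochberg. The causes were not tested. The pretreatments alone, the pretreated exposed groups set against LD, and both interactions gave 0 in every setting run. Same-numbered arrays of different groups did not deviate together (median correlation of deviations -0.05, lowest -0.39, highest 0.31 over 45 pairs), so the numbers were not treated as a pairing. With the replicate number as a block, 15 members were called in exposed against unexposed retinas, Tulp1 being lost. Medians of the members changed sign without LD 3 in PBMLD against LD (-0.04, against 0.08 with it), SafLD against LD (-0.05, against 0.09), PBM by light (-0.12, against 0.04) and saffron by light (-0.02, against 0.15). Without the 4 arrays of highest lens level the first 3 of these medians were -0.12, -0.03 and -0.21. PBMLD against LD was also at -0.003 without PBMLD 1, and PBM by light was below 0 without control 2, PBMLD 1 or PBMLD 3. The precision is limited by 3 arrays a group.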
